A study of Rattus norvegicus with 48 samples.

Results

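Slc19a1, Slc19a3, Slc52a2 and Slc46a3 encode membrane carriers of folates, thiamine and riboflavin or, for Slc46a3, a relative of a folate carrier. They are 4 of the 49 solute carrier (SLC) genes in the study's list of 53 transporter genes, and they were taken from that list by symbol, out of 13050 genes tested in all. The list holds genes whose RNA differed between fasted and fed rats on at least 1 day, so that the values described here also chose the genes. Cerebral endothelial cells (CECs), which line the vessels of the brain and form the blood-brain barrier, came from the cortex of male Wistar-Han rats. Rats of the AL group ate ad libitum, and rats of the F1, F2 and F3 groups had food withdrawn for 1, 2 or 3 days, counted from the morning. Each of the 4 groups has 3 samples, named i, j and k, each from an independent isolation of pooled cortices in which CD11b-positive microglia were removed and CD31-positive cells were kept. Poly(A) RNA was sequenced in bulk from stranded libraries, and the deposited values are reads counted per gene in 4 technical replicates of each sample, which were summed. A difference in bulk RNA cannot tell a change in the share of a cell type from a change in the RNA of each cell.

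Thiamine, folate and riboflavin are vitamins that animals cannot make, so that the brain depends on their transport from blood. Slc19a1 encodes the reduced folate carrier, which moves folates in exchange for organic anions, and Slc19a3 encodes the thiamine transporter THTR2 of the same family. Slc52a2 encodes a riboflavin transporter that is widely made in the body and in the brain. Slc46a3 encodes a carrier of the lysosomal membrane, named in the same family as the proton-coupled folate transporter, and folate is not its established cargo. In the cell, thiamine becomes thiamine diphosphate for enzymes such as the branched-chain keto acid dehydrogenase, folates carry single carbon units, and riboflavin becomes FMN and FAD for flavoenzymes such as the acyl-CoA dehydrogenases of fatty acid oxidation.

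The RNA of the carriers followed different courses over the fast. Slc19a3 had 2.01 times the AL mean in F3 rats and 1.75 times in F1 rats, with F2 rats between them and AL rats. Slc52a2 was 1.44 to 1.58 times the AL mean on all 3 days. Slc46a3 had 0.558 times the AL mean in F3 rats and 0.606 times in F1 rats, and again F2 rats lay between. Slc19a1 was lowest in F1 rats, at 0.697 times the AL mean, and highest in F2 rats, where 1 sample stood well above the rest.

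The DNA before the start of a gene is where many of the proteins that set its transcription bind. The 250 bases before the annotated start are shown for the 3 carriers that have an entry among the RefSeq promoters of the rat assembly GRCr8, which is a later build than the Rnor_6.0 on which the reads were counted. Slc19a1 lies on the minus strand with its window at chr20:11600937-11601186, Slc19a3 on the minus strand at chr9:91747130-91747379, and Slc46a3 on the plus strand at chr12:12176584-12176833. Each sequence is given 5′ to 3′ on the strand of the gene, and capitals mark matches to the motifs searched.
Slc19a1: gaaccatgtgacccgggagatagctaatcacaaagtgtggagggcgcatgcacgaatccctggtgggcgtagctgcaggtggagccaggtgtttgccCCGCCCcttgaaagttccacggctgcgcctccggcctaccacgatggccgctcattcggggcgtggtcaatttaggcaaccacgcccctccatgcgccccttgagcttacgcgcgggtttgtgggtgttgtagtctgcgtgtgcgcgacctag
Slc19a3: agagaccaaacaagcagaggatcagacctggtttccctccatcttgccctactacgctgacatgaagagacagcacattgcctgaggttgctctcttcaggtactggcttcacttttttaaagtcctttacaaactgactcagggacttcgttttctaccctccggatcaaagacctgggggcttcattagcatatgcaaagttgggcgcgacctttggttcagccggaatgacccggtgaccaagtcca
Slc46a3: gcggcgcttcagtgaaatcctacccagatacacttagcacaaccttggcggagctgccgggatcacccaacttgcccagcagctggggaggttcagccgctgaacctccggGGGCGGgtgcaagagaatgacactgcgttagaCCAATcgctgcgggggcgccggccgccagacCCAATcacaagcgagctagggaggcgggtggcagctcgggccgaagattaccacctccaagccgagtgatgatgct
The motifs searched on both strands were the GC box GGGCGG, the CCAAT box CCAAT, the E-box CACGTG, the TATA box TATAAA, the nuclear receptor half-site AGGTCA and the direct repeat of this half-site with 1 base between its copies, which contains the half-site and is the core of the element that PPARs bind. Slc46a3 had 1 GC box from position -139 to -134 and 2 CCAAT boxes from -107 to -103 and from -76 to -72, counted back from the annotated start. Slc19a1 had 1 GC box, on the opposite strand, from -153 to -148. The window of Slc19a3 held none of these motifs. Of 33469 rat promoters, 30.5% held the GC box, 34.0% the CCAAT box, 5.59% the E-box, 12.9% the TATA box, 14.1% the half-site and 0.0508% the direct repeat in the same window. These matches are letters only and say nothing of whether a factor binds there or elsewhere. G and C made up 62% of the window of Slc19a1, 50% of that of Slc19a3 and 62.8% of that of Slc46a3, beside a median of 51.2% over all promoters.

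Depth was similar over the 12 samples, from 20718644 to 25960874 assigned reads, a ratio of 1.25. Counts were divided by TMM-scaled library sizes and brought back to the mean library size. These normalized counts compare a gene between samples but not genes with each other, since they are not divided by gene length. The endothelial marker Pecam1, which encodes CD31, had 33089 ± 2171, 37034 ± 1548, 32113 ± 218 and 33891 ± 767 normalized counts for AL, F1, F2 and F3 (SD, n = 3 each). The markers of other cells that have an identifier here are given next, for comparison between samples and not with Pecam1. The sum of 5 of the 8 microglial markers (C1qa, C1qb, C1qc, Ccl3 and Ccl4) was between 47.3 and 123 normalized counts in the 12 samples, and the red blood cell marker Alas2, 1 of 3 listed, was between 36.1 and 110. The sum of 3 of the 8 markers of pericytes and smooth muscle (Abcc9, Anpep and Acta2) ranged over 1908 to 4372 for AL, 2066 to 2365 for F1, 2451 to 4744 for F2 and 1689 to 4443 for F3. Aldoc, the only 1 of 5 astrocyte markers with an identifier, was between 1530 and 2277 in AL, F1 and F2 samples and between 1545 and 1588 in F3 samples. Only genes with at least 1 read in each sample were used, so that none of these markers could be at 0 in a sample. Those of neurons and oligodendrocytes were not analysed here. The sum of 4 of 8 endothelial markers (Pecam1, Abcb1a, Slc2a1 and Slco1a4) was higher in every fasted sample (542995 to 592501) than in every AL sample (446943 to 497076). Most of it is Slc2a1, the glucose transporter GLUT1, which is itself in the study's list of transporters that differed. Slco1a4, also in that list, went the other way, with means of 81417, 63483, 75120 and 60544 normalized counts for AL, F1, F2 and F3. Abcb1a had means of 74499, 74239, 76802 and 74987 in the same order.

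Slc19a3 (ENSRNOG00000057256) had the most reads among the 4 genes, 3615 to 11089 per sample, so that the counting error of a sample was at most 1.66%. AL samples i, j and k had 4105, 4493 and 4723 normalized counts. F1 samples had 7735, 8214 and 7320, all above every AL sample. F2 samples had 7127, 3581 and 5679, so that sample j lay below all AL samples and samples i and k above them. F3 samples had 10292, 9699 and 6811, with sample k apart from the others. The group means were 4440 ± 313 for AL, 7757 ± 448 for F1, 5462 ± 1783 for F2 and 8934 ± 1862 for F3 (SD, n = 3 each). In order of the mean the groups were AL, F2, F1 and F3. Samples of AL and F2 rats and samples of F1 and F3 rats overlapped, and all F2 samples lay below all F1 samples. The LFC (log2 fold change) relative to AL rats was 0.80 at day 1, 0.30 at day 2 and 1.01 at day 3, each with a standard error of 0.21. The value at day 2 depended on single samples, and the LFC was 0.53 without F2 sample j and 0.06 without F2 sample i.

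Slc52a2 (ENSRNOG00000032561) was the carrier with the least spread, with 1900 to 3750 reads per sample. Its AL samples i, j and k had 2215, 1906 and 2208 normalized counts. F1 samples had 3114, 2947 and 3063, F2 samples 3203, 3195 and 3047, and F3 samples 3480, 3478 and 3014. All 9 fasted samples therefore lay above all 3 AL samples. The means were 2110 ± 176 for AL, 3041 ± 85.7 for F1, 3148 ± 87.6 for F2 and 3324 ± 269 for F3 (SD, n = 3 each), and neighbouring days of the fast overlapped. The LFC was 0.53, 0.58 and 0.66 at days 1, 2 and 3, with a standard error of 0.08 each. Relative to AL rats, Slc52a2 and the monocarboxylate transporter gene Slc16a1 were past an adjusted p of 0.05 from edgeR on all 3 days. No other of the 53 listed transporter genes was, and 79 of the 13050 genes tested were. Slc2a1 fell short at day 2 only, with an adjusted p of 0.0503 from edgeR. For 13 of the 53 genes, all fasted samples lay on 1 side of the AL samples on all 3 days. The share of all genes tested for which this held was not computed. On single days, samples of fasted and AL rats did not overlap for 28.7%, 15.5% and 35.6% of all genes at days 1, 2 and 3. The comparisons with AL rats chose the list, so that these counts are a description.

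Slc46a3 (ENSRNOG00000000937) had 122 to 274 reads per sample, with a counting error of 6.04% to 9.05%. Its AL samples i, j and k had 252, 235 and 246 normalized counts. F1 samples had 124, 149 and 170, and F3 samples 143, 130 and 135, so that no sample of either group reached the AL samples. F2 samples had 170, 245 and 169, and sample j was at the level of AL rats while samples i and k were at the upper end of F1 rats. The means were 244 ± 8.78 for AL, 148 ± 23.2 for F1, 195 ± 43.2 for F2 and 136 ± 6.39 for F3 (SD, n = 3 each). In rising order of the mean the groups were F3, F1, F2 and AL, and the samples of each pair of neighbours in this order overlapped. The LFC was -0.72 at day 1 (standard error 0.16), -0.33 at day 2 (0.15) and -0.84 at day 3 (0.16), and without F2 sample j it was -0.52 at day 2.

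Slc19a1 (ENSRNOG00000001232) had 299 to 734 reads per sample, with a counting error of 3.69% to 5.78%. Its AL samples i, j and k were spread over 575, 498 and 366 normalized counts. F1 samples were closer together, at 335, 314 and 354, all below the AL samples. F2 samples had 500, 727 and 501, and sample j was the highest of the 12. F3 samples had 385, 424 and 350, within or below the range of AL rats. The means were 479 ± 106 for AL, 335 ± 19.9 for F1, 576 ± 131 for F2 and 386 ± 37.1 for F3 (SD, n = 3 each). In rising order of the mean the groups were F1, F3, AL and F2, and each pair of neighbours overlapped. The LFC was -0.52, 0.26 and -0.32 at days 1, 2 and 3, with a standard error of 0.17 each. The LFC at day 2 was 0.06 without F2 sample j, 0.10 without AL sample k and 0.42 without AL sample i, and that at day 3 was -0.15 without AL sample i.

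**Figure D1:**
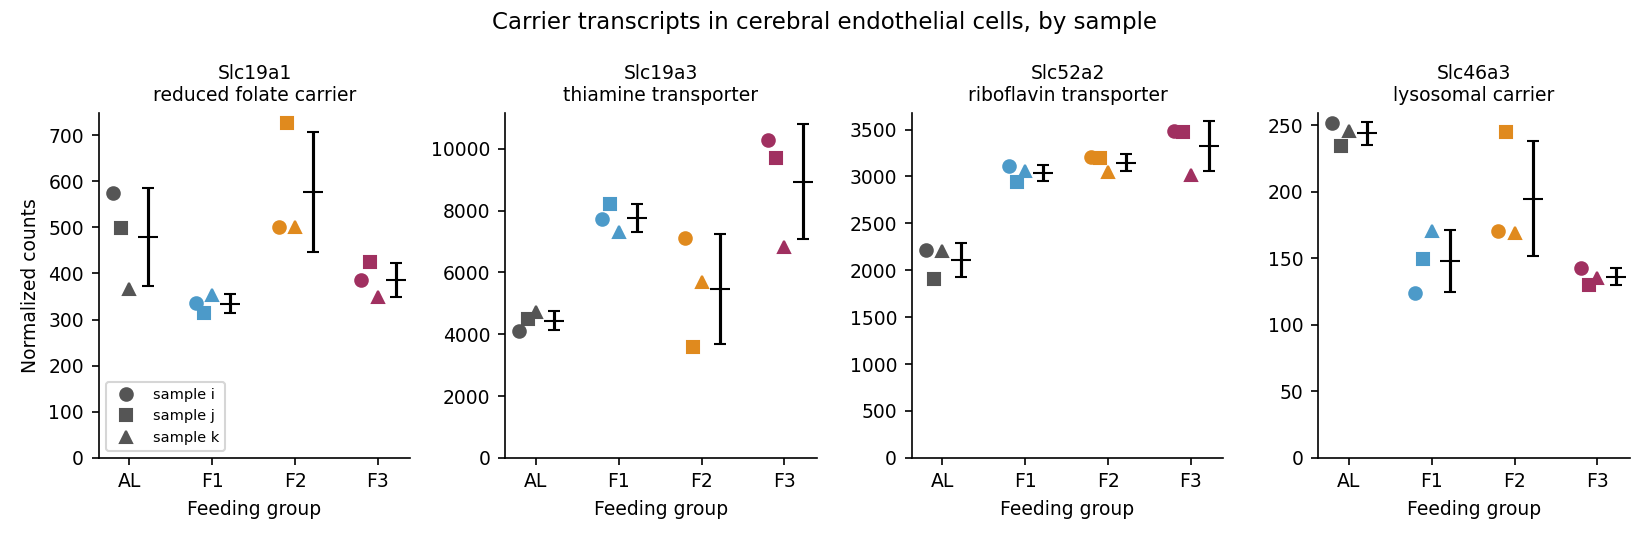
Normalized counts (vertical axis, linear, from 0, one scale per gene) of Slc19a1, Slc19a3, Slc52a2 and Slc46a3 in CECs of AL, F1, F2 and F3 rats (horizontal axis). Circles, squares and triangles are samples i, j and k, and the black bars are the mean ± SD of 3 samples. All fasted samples of Slc52a2 lie above the AL samples, and F2 sample j is the highest F2 sample of Slc19a1 and Slc46a3 and the lowest of Slc19a3.

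F2 sample j thus stood apart for 3 of the 4 carriers and not for Slc52a2. It was the highest of F2 samples in Slc19a1 (727 against 500 and 501) and in Slc46a3 (245 against 170 and 169) and the lowest in Slc19a3 (3581 against 7127 and 5679). Its 23537074 assigned reads were near those of F2 samples i and k (24277115 and 23781697). The summed pericyte and smooth muscle markers were 2451 in F2 sample j and 4351 and 4744 in F2 samples i and k. The microglial sum was 88.2 in sample j and 112 and 60.1 in samples i and k. In samples i, j and k of the other groups, this pericyte and smooth muscle sum was 4372, 2683 and 1908 for AL, 2066, 2164 and 2365 for F1 and 4443, 1689 and 2929 for F3. Slc19a1 had 575, 498 and 366 normalized counts in these AL samples, 335, 314 and 354 in F1 and 385, 424 and 350 in F3. The part of the pericyte and smooth muscle markers in the differences between samples was not tested.

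Set against the background of all genes, the samples of a fasted group and of AL rats did not overlap for 4 of 4 carriers at day 1, 1 of 4 at day 2 and 3 of 4 at day 3, and for 28.7%, 15.5% and 35.6% of all genes tested. An adjusted p of at most 0.05 was reached by 3 of 4 carriers at day 1, 1 of 4 at day 2 and 3 of 4 at day 3, and by 6.56%, 0.858% and 12% of all genes. Since these comparisons chose the carriers, the counts are a description. At day 1 the call of Slc19a3 was made under 13 of 22 other settings of the fit, that of Slc46a3 under 19 (not without AL sample i, F1 sample i or F1 sample j), and Slc19a1, not called here, was called under 3 (with DESeq2's Wald test and without AL sample k or F2 sample j). The call of Slc19a3 was lost without any 1 of the AL samples, any 1 of the F1 samples or F2 sample k, with no filter and with a block for the sample letter. At day 3 Slc19a3 and Slc46a3 were called under all 22 settings, and Slc52a2 was called at days 1 and 3 under all 22 and at day 2 under 21 of them.

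The days of the fast can be set against each other without the AL samples. These comparisons did not choose the genes, but the same fasted samples entered the choice, so that the tests are not independent of it. Between F1 and F2 rats, 1 of the 4 carriers passed the threshold, beside 1.43% of all genes. Slc19a1 rose from F1 to F2 rats by 0.78 on the log2 scale (standard error 0.17, adjusted p = 0.0445, by the quasi-likelihood test of edgeR with the Benjamini-Hochberg method), with all F2 samples above all F1 samples. The adjusted p was 0.0802 without F2 sample j, with an LFC of 0.58, and 0.137, 0.199 and 0.0882 without F1 samples i, j and k. It was also above the threshold without F2 sample k (0.0589), AL sample j (0.0567) and F3 samples i, j and k (0.0628, 0.0574 and 0.0657), and ranged from 0.00155 with DESeq2's Wald test to 0.199 over all 22 other settings. Slc19a3 had an LFC of -0.51 from F1 to F2 rats (standard error 0.21, adjusted p = 0.243 from edgeR) and Slc46a3 of 0.40 (0.16, adjusted p = 0.211), and without F2 sample j these values were -0.28 and 0.20. Slc52a2 had an LFC of 0.05 (standard error 0.08, adjusted p = 0.796 from edgeR), with a 95% interval from -0.10 to 0.20. Samples of the F1 and F2 groups did not overlap for Slc19a1 and Slc19a3, 2 of the 4 carriers, and for 21.8% of all genes.

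Between F2 and F3 rats, 0 of the 4 carriers passed the threshold of edgeR's test, 3 had an unadjusted p under 0.05, and 5.94% of all genes were called. The adjusted p-values of these 3 carriers were close to the threshold, and all 3 passed it with DESeq2's Wald test. Slc19a3 had an LFC of 0.71 from F2 to F3 rats (standard error 0.21), with an adjusted p of 0.0718 from edgeR and 0.00837 from DESeq2. Slc19a1 had an LFC of -0.58 (standard error 0.17, adjusted p = 0.0629 from edgeR and 0.0194 from DESeq2). Slc46a3 had an LFC of -0.52 (standard error 0.16, adjusted p = 0.0693 from edgeR and 0.0324 from DESeq2). F2 sample j bears on all 3 values. Without it the LFC was 0.48 for Slc19a3, -0.37 for Slc19a1 and -0.32 for Slc46a3, where edgeR gave an adjusted p of 0.126, 0.179 and 0.220. Slc52a2 had an LFC of 0.08 (standard error 0.08, adjusted p = 0.596 from edgeR), with a 95% interval from -0.08 to 0.23. The groups did not overlap for Slc19a1 and Slc46a3, 2 of the 4 carriers, and for 26.8% of all genes.

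Between F1 and F3 rats no difference was detectable for nearly any gene at 3 samples a group. Of all genes, 0% passed the threshold of edgeR's test in F3 against F1 rats, 579 had an unadjusted p under 0.05, and DESeq2's Wald test called 24. None of the 4 carriers passed with either tool or had an unadjusted p under 0.05 with edgeR. The LFC from F1 to F3 rats was 0.21 for Slc19a1 (95% interval from -0.13 to 0.55), 0.20 for Slc19a3 (-0.21 to 0.62), 0.13 for Slc52a2 (-0.03 to 0.28) and -0.12 for Slc46a3 (-0.43 to 0.20). Samples of the 2 groups overlapped for all 4 carriers, and did not for 13.0% of all genes.

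**Figure D2:**
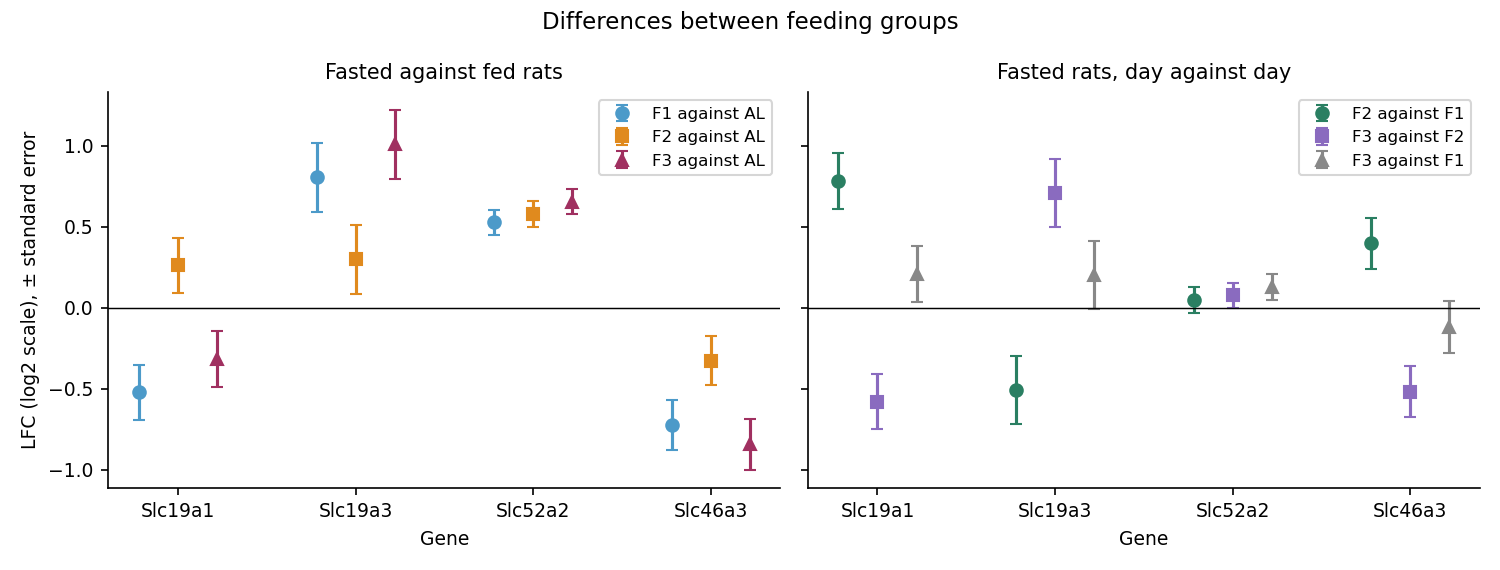
LFC (vertical axis, log2 scale) of the 4 carrier genes (horizontal axis) in F1, F2 and F3 rats against AL rats (left, the comparisons that chose the genes) and between days of the fast (right). Points are the estimates of 1 edgeR model of 12 samples and bars their standard errors. On the right, F2 against F1 and F3 against F2 have opposite signs for Slc19a1, Slc19a3 and Slc46a3, and all values of Slc52a2 are at most 0.13.

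The technical replicates of a sample counted the carriers alike. Over the 12 samples, the chi-square per degree of freedom between the 4 technical replicates was 1.29 for Slc19a1, 0.738 for Slc19a3, 1.22 for Slc52a2 and 1.18 for Slc46a3, where pure counting noise gives about 1. The spread between samples of a group was larger than this for most groups. For Slc19a3 the coefficient of variation over the 3 samples was 5.77% to 32.6%, against a counting error of at most 1.66%, and for Slc19a1 it was 5.95% to 22.7%. That of Slc46a3, 3.59% to 22.2%, fell below its counting error in AL and F3 rats, so that in these groups the samples varied no more than counting alone would let them. One of the technical replicates of F1 sample k, named d, carries labels that disagree, with a fast of 2 days in 1 field and the F1 group in its title, and it was kept in F1. Leaving it out raised the adjusted p of Slc19a1 between F1 and F2 rats to 0.0512.

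Of 79 other genes of vitamin transport and use, 28 had an identifier here and all 28 were tested. They are mostly genes whose symbols come early in the alphabet, because the table that pairs symbols with identifiers was held only in part. Among 3 of 18 other vitamin carriers and processing genes, Slc23a1, the sodium-dependent vitamin C transporter SVCT1, is in the list of transporters chosen on these samples. It had few reads, 12 to 34 per sample, and 32.0 ± 5.39 normalized counts for AL, 18.2 ± 5.18 for F1, 25.0 ± 2.71 for F2 and 13.3 ± 3.13 for F3 (SD, n = 3 each). Its LFC was -0.81, -0.36 and -1.26 at days 1, 2 and 3 (standard error 0.28, 0.27 and 0.29), with F2 rats nearest to AL rats as for Slc46a3. From F2 to F3 rats it had an LFC of -0.90 (standard error 0.30) with an adjusted p of 0.0902 from edgeR. Btd, the biotinidase that frees biotin for reuse, had an LFC of 0.20, 0.13 and 0.15 at days 1, 2 and 3 (adjusted p of 0.110, 0.480 and 0.207 from edgeR). Abcd4, which takes part in the release of vitamin B12 from lysosomes, had an LFC of 0.07, -0.08 and -0.01 (adjusted p of 0.750, 0.769 and 0.950).

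The ABC transporters that can carry folates or riboflavin out of cells did not pass edgeR's threshold in any of the 6 comparisons. Of these 6 genes, 0, 3 and 0 had an unadjusted p under 0.05 at days 1, 2 and 3 relative to AL rats, and 0, 1 and 0 from day 1 to 2, from day 2 to 3 and from day 1 to 3. DESeq2's Wald test also called 0 in every comparison. Abcg2, the exporter BCRP, had 21901 ± 2556 normalized counts in AL rats and 28356 ± 4134 in F2 rats (SD, n = 3 each), with an LFC of 0.37 and an adjusted p of 0.209 from edgeR. Abcc4, or MRP4, had an LFC of 0.08, -0.18 and -0.15 at days 1, 2 and 3, with a standard error of 0.12 each. Abcc1 had an LFC of 0.17, 0.07 and 0.29 (adjusted p of 0.573, 0.888 and 0.241 from edgeR). Its F2 sample j, at 864 normalized counts, lay apart from F2 samples i and k at 1423 and 1432, and Abcc1 was called at day 3 under 2 of 22 other settings, without F2 sample j and with only the 6 samples compared. Abcc5 had an LFC of 0.13, 0.22 and 0.03 (adjusted p of 0.311, 0.201 and 0.820 from edgeR). Abcc2 and Abcc3 were scarce, with 37.7 ± 12.3 and 59.1 ± 25.9 normalized counts in AL rats (SD, n = 3), and their LFCs lay between -0.71 and -0.27 with standard errors of at least 0.29.

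Of the enzymes that use these vitamins, 2 of 10 thiamine diphosphate enzymes (Bckdha and Bckdhb), 2 of 21 folate enzymes (Atic and Amt) and 15 of 24 riboflavin activation and flavoenzyme genes were tested. None of the thiamine and folate enzymes passed edgeR's threshold in any of the 6 comparisons. An unadjusted p under 0.05 was found for 1 of 2 thiamine enzymes at day 1 and at day 3 and for 1 of 2 folate enzymes at day 3, and DESeq2's Wald test called 1 of 2 thiamine enzymes at day 1. The thiamine enzyme was Bckdhb each time, with an LFC of -0.32 and -0.27 at days 1 and 3 (adjusted p of 0.0663 and 0.0867 from edgeR). Bckdha had an LFC of 0.05 and -0.01 on these days. The folate enzyme was Amt, with an LFC of -0.19 at day 3 (adjusted p of 0.135 from edgeR). Among the flavoenzymes, 3 of 15 were called at day 1, 0 at day 2 and 4 at day 3 relative to AL rats, beside 6.56%, 0.858% and 12% of all genes. Those called were all acyl-CoA dehydrogenases, FAD enzymes that take the first step of each round of fatty acid oxidation. Most of the 15 genes tested are acyl-CoA dehydrogenases too. At day 2, 6 of the 15 had an unadjusted p under 0.05 and DESeq2 called 2. Acad9, which also helps to assemble respiratory complex I, rose from 776 ± 168 normalized counts in AL rats to 1066 ± 29.2 at day 1 and 1357 ± 43.3 at day 3 (SD, n = 3 each), with an LFC of 0.46 (adjusted p = 0.0390) and 0.81 (adjusted p = 0.000796) from edgeR. Acadm, the medium-chain enzyme, rose with an LFC of 0.36 at day 1 (adjusted p = 0.0120) and 0.34 at day 3 (adjusted p = 0.0101). Acadl, the long-chain enzyme, rose at day 3 with an LFC of 0.34 (adjusted p = 0.0146 from edgeR). Acad11 fell with an LFC of -0.37 at day 1 (adjusted p = 0.0159) and -0.49 at day 3 (adjusted p = 0.00151), and it was the only 1 of the 28 genes called between days, with an LFC of -0.31 from F2 to F3 rats (adjusted p = 0.0381).

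Several of these calls were lost when 1 sample was left out, which also leaves fewer samples to test with. The call of Acad9 at day 1 was made under 12 of 22 other settings, and over the 22 its adjusted p from edgeR reached 0.146. It was lost without AL sample i or k and without any 1 of the F1 or F3 samples. Scaling by total counts and the fit of only the 6 samples compared lost it too. Acadm lost its call at day 1 without AL sample i or F1 sample j and at day 3 without F3 sample i, with adjusted p-values of at most 0.0648. Acadl lost its call without AL sample i or F3 sample i (at most 0.0655), and Acad11 lost that at day 1 without AL sample k or F1 sample j (at most 0.0810). Slc23a1 lost its call at day 3 without F3 sample i or F3 sample k. The calls of Acad9 and Acad11 at day 3 were made under all 22 settings. From F2 to F3 rats, Acad11 was called under 12 of 22.

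Over all 28 genes the counts were 3, 0 and 5 called at days 1, 2 and 3 relative to AL rats, the last with Slc23a1, and 0, 1 and 0 from day 1 to 2, from day 2 to 3 and from day 1 to 3. Beside these stand 6.56%, 0.858% and 12% of all genes relative to AL rats and 1.43%, 5.94% and 0% between the days. Slc23a1 is in the list that the comparisons with AL rats chose, so that its call at day 3 is a description. The other 4 calls at day 3 were of flavoenzymes. In the comparisons with a count of 0, 9 (day 2), 2 (F2 against F1) and 2 (F3 against F1) genes had an unadjusted p under 0.05, and DESeq2's Wald test called 2, 0 and 0. The median LFC of the 28 genes was 0.05, 0.06 and -0.01 at days 1, 2 and 3, and that of all genes tested was -0.0043, -0.0085 and -0.0053.

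**Figure D3:**
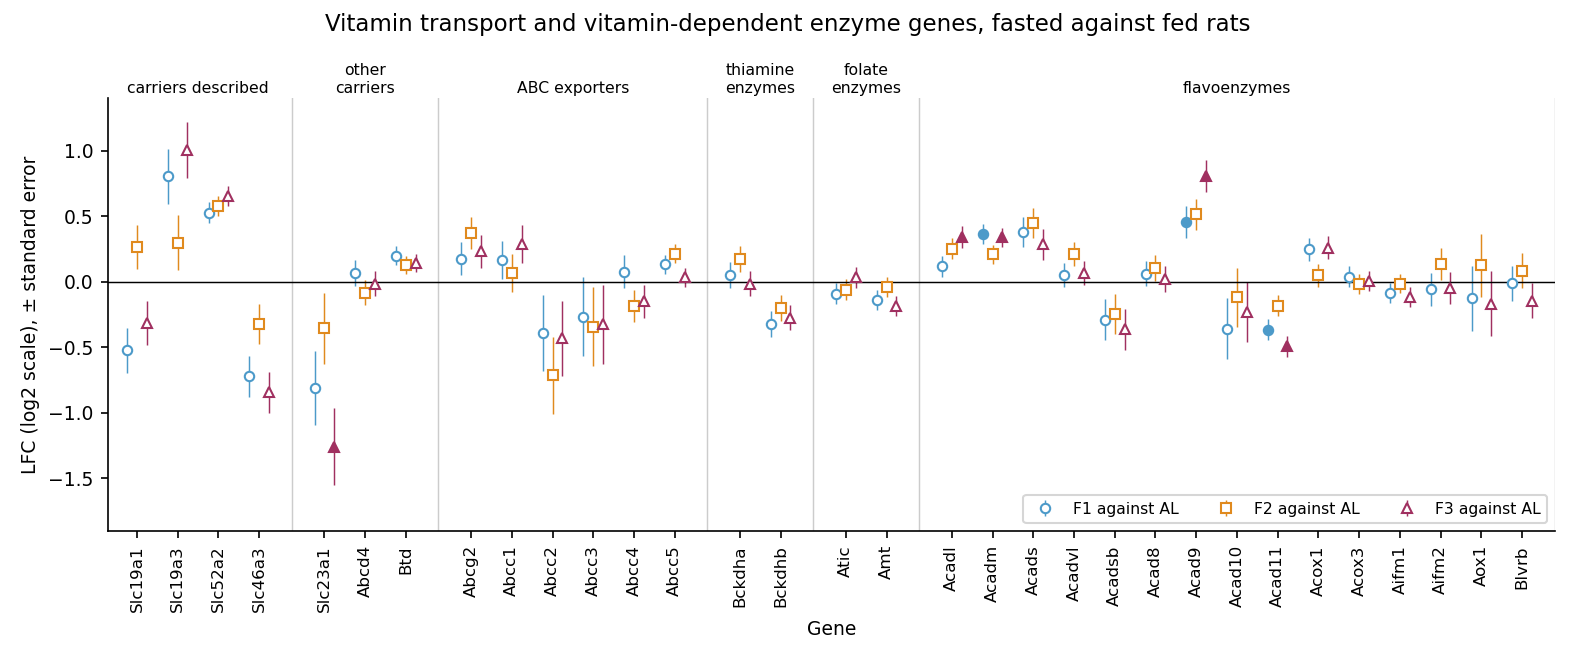
LFC relative to AL rats (vertical axis, log2 scale) of the 4 carriers and of 28 further genes of vitamin transport and use (horizontal axis, in groups), with circles for F1, squares for F2 and triangles for F3 rats and bars for the standard error. Filled points passed an adjusted p of 0.05, and the 4 carriers are drawn open because these comparisons chose them. Slc23a1 is in the list chosen by the same comparisons, so that its filled point is a description. Filled points other than Slc23a1 are all acyl-CoA dehydrogenase genes, which also make up most of the flavoenzyme genes drawn.

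For each carrier, the genes with the most similar course over the 12 samples were sought among 1260 genes with a symbol and a mean of at least 100 normalized counts. The measure was Pearson's r of log2 CPM, that is, log2 counts per library size after 2 counts had been added as a prior. Since symbols were held only in part, mostly those early in the alphabet, most of the 13050 genes tested were not searched. Genes outside the 1260 may be more similar. These r are descriptions over 12 samples that fall into 4 groups and share their libraries. Slc19a3 was most like Abr (r = 0.967), Adgrl4, an adhesion receptor of endothelial cells (r = 0.944), and Arhgap31, a GTPase-activating protein (r = 0.943). Abr had a mean of 1727, 2764, 2003 and 3248 normalized counts in AL, F1, F2 and F3 rats, and Arhgap31 of 16912, 27817, 18700 and 29749. Both thus had their higher means in F1 and F3 rats, like Slc19a3.

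Slc46a3 was most like Anp32a (r = 0.940), Casp1, the caspase that activates interleukin-1β (r = 0.930), and Akirin1 (r = 0.924). Casp1 had a mean of 858, 498, 665 and 472 normalized counts in AL, F1, F2 and F3 rats, lower in F1 and F3 than in F2 rats as in Slc46a3. Slc52a2 was most like Alas1, the first enzyme of heme synthesis (r = 0.895), Caskin1 (r = 0.890) and B3gnt2, a glycosyltransferase (r = 0.890). Alas1 had 12406, 23204, 22317 and 28278 normalized counts on average in the 4 groups, so that all fasted groups were above AL rats. Slc19a1 was most like Ahcy, which breaks down the S-adenosylhomocysteine left by methylation (r = 0.900), Acp6 (r = 0.879) and Bhlhe40, a transcriptional repressor of the circadian clock (r = 0.875). Ahcy had 770, 739, 922 and 773 normalized counts, and its range over the groups was narrower than that of Slc19a1.

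**Figure D4:**
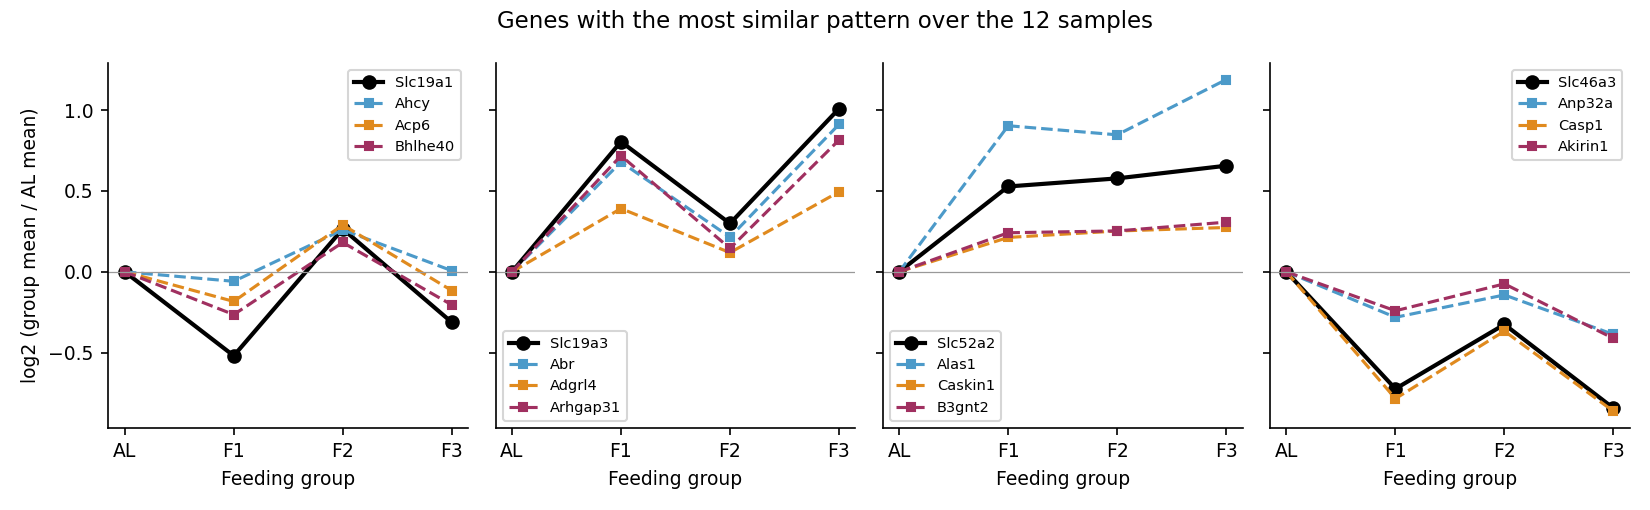
Group means relative to the AL mean (vertical axis, log2 scale) in AL, F1, F2 and F3 rats (horizontal axis) for each carrier (black) and 3 other genes (dashed). These 3 had the highest Pearson's r with the carrier over 12 samples among the 1260 genes searched, which are a part of the genes tested. The curves of Slc19a3 and its 3 genes are higher at F1 and F3 than at F2, those of Slc46a3 and its 3 genes are lower at F1 and F3 than at F2, and those of Slc52a2 stay raised on all days.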

How the data were processed

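The authors sequenced bulk poly(A) RNA of CECs and, per the labels and the paper's methods, aligned reads with STAR to Rnor_6.0 (Ensembl annotation), removed reads with several matches, and counted reads on exons with HTSeq-count 0.5.3. The strand setting is not given in the sources used here. The deposited values are raw counts in 48 files, with 4 technical replicates of each of 12 samples. These were summed here, and samples were grouped by their labels.

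Genes with at least 1 read in each sample (13050) were fitted with edgeR 4.0.16 in R 4.3.3, with TMM normalization, 4 group means, the robust quasi-likelihood test and Benjamini-Hochberg adjustment over all genes (threshold 0.05). A fold is 2 raised to the LFC, and 95% intervals are the LFC ± 1.96 standard errors. The scripts were tested on simulated data. Alternatives were other scalings, DESeq2 1.42.0, other filters, fits of the 6 samples of a comparison, a block for the sample letter, single samples left out and, added after seeing the data, the fit without the robust option.

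Carriers and lists were chosen with earlier results of these data known. Named genes are the carriers, their 3 nearest genes each, all transport list genes with an identifier, called enzyme genes and cell markers. Bckdha, Bckdhb, Atic and Amt, which were not called, are outside this rule. Counting errors are the square root of the count over the count and cover counting only. P-values rest on 3 independent isolations a group.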

Additional observations from a re-analysis of the deposited data

How the results depend on the processing

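The LFC of the 4 carriers in the 6 comparisons was recomputed under 22 other settings, 12 of which left out 1 sample, which gave 528 values. No value changed its sign. In the comparisons with AL rats no value moved by 1 SD or more, 13 values lost a call and 3 gained one, and between days 11 lost a call and 8 gained one. Slc19a1 in F2 against F1 rats lost its call with only the 6 samples compared (LFC 0.78, adjusted p = 0.0605) and without technical replicate d of F1 sample k (0.77, 0.0512), and over the fits without 1 sample its LFC ranged from 0.58 to 0.88. In F3 against F2 rats, DESeq2's Wald test called Slc19a1 (LFC -0.57), Slc19a3 (0.71) and Slc46a3 (-0.52), and filterByExpr called Slc19a3 (0.72). Over the fits without 1 sample the LFC ranged from -0.67 to -0.37 for Slc19a1 and from 0.48 to 0.95 for Slc19a3. Slc19a1 gained a call without AL sample i (adjusted p = 0.0478) and AL sample k (0.0349), and Slc19a3 without F2 sample i (0.0251) and F3 sample k (0.0455).

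The number of the 28 vitamin genes called was 3 at day 1, and 5 with DESeq2 and 0 to 5 without 1 sample (1 when AL sample i or AL sample k was left out, 0 without F1 sample j, 5 without F2 sample j). It was 0 at day 2, and 2 with DESeq2, 1 with no filter and 0 to 1 without 1 sample (1 without AL sample j). It was 5 at day 3, and 9 with only the 6 samples compared and 2 to 10 without 1 sample (2 without F3 sample i, 10 without F2 sample j). For F3 against F2 rats it was 1, and 0 with no filter, with only the 6 samples compared and with the replicate block, and 0 to 1 without 1 sample. The cause of these changes was not tested.

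Whether the sample letters pair the samples was not settled. Across groups, 3 of 18 same-letter pairs had a correlation of deviations from the group means over 0.1 (median 0.0288). Of the pairs with different letters, 1 of 36 did (median -0.0252). With the letter as a replicate block Slc19a1 in F2 against F1 rats stayed called (adjusted p = 0.0492), Slc19a3 in F1 against AL rats was no longer called, and the number of genes called in F2 against F1 rats fell from 186 to 108. Over all genes, DESeq2 called 359, 616 and 1242 genes for F2 against AL, F2 against F1 and F3 against F2 rats, where edgeR called 112, 186 and 775. The fit of only the 6 samples compared called 0, 56 and 262. Without 1 sample the counts ranged from 308 to 1451 for F1 against AL, from 35 to 162 for F2 against AL, from 792 to 2368 for F3 against AL, from 0 to 217 for F2 against F1 and from 164 to 783 for F3 against F2 rats. Scaling by total counts changed the number of higher among called genes from 505 of 856 to 375 of 968 at day 1, from 64 of 112 to 64 of 139 at day 2 and from 819 of 1572 to 664 of 1619 at day 3, and upper-quartile scaling gave 87 of 129 at day 2.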
